A study of Caenorhabditis elegans with 2 samples.

Results

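The 10 heterochronic genes puf-9, lin-66, lin-14, lin-28, lin-46, hbl-1, lin-41, lin-29, let-7 and lin-4 were examined out of 46926 annotated genes. They were chosen by name from the developmental timing pathway, and selected on their values in these same peak lists. Counts and signal values at them are therefore descriptions, and none was tested. Expression was not measured, so the files do not show whether the genes were active in these larvae. Binding of CEH-82, a homeodomain protein, joined to enhanced green fluorescent protein (eGFP) was mapped in whole L3 larvae of Caenorhabditis elegans, of mixed sex, by chromatin immunoprecipitation and sequencing. Both samples are biological replicates of a single group. All worms were of strain OP212, with the genotype unc-119(ed3) III; ddEx58, and the labels enter ceh-82 as the antibody. There was no untagged or other condition among the samples, the cells in which the protein bound cannot be read from whole larvae, and the number of reads behind each value is unknown.

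Heterochronic genes set which larval stage a cell lineage carries out. The microRNA lin-4 represses lin-14 and lin-28, and let-7 and its family repress hbl-1 and lin-41, so that early programmes give way to later ones. At the end of the pathway the zinc finger protein LIN-29 turns on the switch to the adult skin. L3 lies between the early programmes and that switch.

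A gene was given every summit, the highest point of a peak, from 2 kb upstream of its annotated start to its annotated end. The reproducible list held 748 peaks, the candidate list from both replicates pooled held 30000 entries, and those of replicates 1 and 2 held 30000 and 22611. Candidate lists mix peaks with background by the authors' design, so an entry there is not a binding site in itself. The signal value is the authors' own score of each peak, on a scale that differs between lists, so values are set against ranks within a list. The 748 reproducible peaks were exactly the 748 strongest of the pooled list, or 2.49% of it, with a lowest signal value of 26.92, against 26.88 for the strongest pooled entry outside.

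A reproducible peak lay at 4 of the 10 genes, namely puf-9, let-7, lin-4 and lin-66, against 3.13% of all annotated genes and 4.72% of the 19985 protein-coding genes. All 4 peaks were upstream of the gene start. All 10 genes held at least 1 entry in the pooled list, against 52.6% of all genes and 64.9% of protein-coding genes. All 10 also held one in the replicate 1 list and in the replicate 2 list, where 53.3% and 46.7% of all genes did, and 32.4% of all genes held one in both. Their windows had a median length of 7005 bp, against 4026 bp for protein-coding genes, and a longer window holds more entries by its length alone.

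The sequences under the 4 reproducible peaks are shown because they are the places where these genes and the strongest CEH-82 signals meet. Each is the 100 bp around the pooled summit on assembly WBcel235 (ce11), on the strand of the gene. Capitals mark matches, on either strand, to the words GTCTC and TGCGC, which are taken up beside the base composition. The windows are chrX:5841260-5841359 for puf-9 (plus strand), chrX:14747078-14747177 for let-7 (minus strand), chrII:5901778-5901877 for lin-4 (plus strand) and chrIV:13887617-13887716 for lin-66 (plus strand).
puf-9: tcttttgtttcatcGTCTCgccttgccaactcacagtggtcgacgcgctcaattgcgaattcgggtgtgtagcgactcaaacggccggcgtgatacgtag
let-7: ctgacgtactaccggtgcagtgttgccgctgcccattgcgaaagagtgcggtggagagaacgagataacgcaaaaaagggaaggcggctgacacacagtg
lin-4: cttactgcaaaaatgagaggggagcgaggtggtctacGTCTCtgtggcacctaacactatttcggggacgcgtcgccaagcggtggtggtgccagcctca
lin-66: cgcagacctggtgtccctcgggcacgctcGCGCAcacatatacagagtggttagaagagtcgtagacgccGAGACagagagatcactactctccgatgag

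The mature microRNAs of the pathway are shown because their seeds tie the members to one another. Capitals mark the seed, bases 2 to 8, in the RefSeq annotation of WBcel235. The let-7 family, of which mir-48, mir-84 and mir-241 are the other members examined, shared the seed GAGGUAG, and lin-4 had the seed CCCUGAG.
let-7: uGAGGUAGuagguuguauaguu
mir-48: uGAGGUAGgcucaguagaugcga
mir-84: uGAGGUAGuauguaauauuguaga
mir-241: uGAGGUAGgugcgagaaauga
lin-4: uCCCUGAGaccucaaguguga

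Of the microRNA genes let-7 and lin-4, let-7 had the stronger entry. Its reproducible peak had a signal value of 43.29, rank 297 of the pooled list, at 1807 bp upstream of the annotated start of the let-7 gene (chrX:14746958-14747297). The matching entry had a signal value of 33.25 and rank 287 in replicate 1, and 9.03 and rank 660 in replicate 2, and the replicate summits were 3 bp apart. The peak lay between let-7 and the protein-coding gene C05G5.2, which runs the other way, and its summit was 175 bp upstream of C05G5.2, so the annotation does not say which of the genes it belongs to. A further pooled entry, with a signal value of 18.84 and rank 1495, lay 639 bp inside the let-7 gene and 202 bp upstream of an internal transcript start. Replicate 1 had an entry 649 bp and replicate 2 one 622 bp inside the gene, with ranks 1407 and 10639. This inner entry was thus near the top of one replicate's list and in the middle of the other's.

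At lin-4 the reproducible peak had a signal value of 31.05, rank 563, at 426 bp upstream of the annotated start (chrII:5901658-5901997). Its entry had a signal value of 20.39 and rank 796 in replicate 1, and 9.452 and rank 590 in replicate 2, with summits 31 bp apart. The lin-4 gene lies downstream of the start of the protein-coding gene F59G1.4 on the same strand, and the nearest start to the peak was that of the noncoding RNA gene F59G1.12, at 238 bp. The weaker pooled entry at 1910 bp upstream had a signal value of 10.41 and was far apart in rank between replicates, at 29732 in replicate 1 and 1463 in replicate 2.

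Of the targets of these microRNAs among the 10 genes, lin-14, lin-28, hbl-1 and lin-41, none had a reproducible peak. Most genes had none, since 4.72% of protein-coding genes held one. The target nearest to the reproducible list was lin-41, which encodes an RNA-binding TRIM-NHL protein repressed by let-7. Its strongest pooled entry had a signal value of 24.63 and rank 886, just outside the list, which ended at 26.92, whereas lin-66 with 27.11 and rank 739 was just inside. The lin-41 summit was 1526 bp upstream of the start, and no annotated start of another gene was nearer. Replicate 1 had its entry 1606 bp upstream, with a signal value of 19.73 and rank 849, and replicate 2 had one 1567 bp upstream, with 5.802 and rank 2250. In replicate 2 a coding exon entry of lin-41 ranked higher, with a signal value of 6.249 and rank 1817.

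lin-14, which encodes a nuclear protein that sets early larval fates and is the classic target of lin-4, held the most entries. It had 31 in the pooled list, 27 in replicate 1 and 24 in replicate 2, which were 39.2%, 40.3% and 42.1% of all entries at the 10 genes. Its window of 22.3 kb held 1.39 pooled entries per kb, and 0.711% of protein-coding windows were at least as dense. That share was 1.58% in replicate 1 and 1.01% in replicate 2. Counting lin-14 itself, 4 protein-coding windows held as many pooled entries, 8 as many in replicate 1 and 2 as many in replicate 2. None of the lin-14 entries was strong enough for the reproducible list. The strongest, in an intron 2027 bp from the start and 57 bp upstream of the noncoding RNA gene T25C12.7, had a signal value of 22.29 and rank 1064. The replicates placed their own strongest entries 20417 bp apart. Replicate 1 had it 288 bp upstream, with a signal value of 22.37 and rank 659, and replicate 2 had it in the 3′ UTR, 20129 bp from the start, with 9.607 and rank 574. At the intronic summit both had an entry, with a signal value of 15.01 and rank 1514 in replicate 1, and 9.067 and rank 654 in replicate 2.

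The intronic window of lin-14 (chrX:11467537-11467636, plus strand) and the one at its upstream summit in replicate 1 (chrX:11465222-11465321, plus strand) are shown because the strongest entries of the replicates were farthest apart at lin-14. Capitals mark TGCGC, on either strand.
lin-14 intron: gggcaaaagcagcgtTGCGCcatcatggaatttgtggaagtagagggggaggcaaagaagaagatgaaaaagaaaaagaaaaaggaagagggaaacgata
lin-14 upstream: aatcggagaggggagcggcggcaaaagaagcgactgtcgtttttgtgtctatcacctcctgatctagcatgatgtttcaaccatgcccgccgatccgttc

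lin-28, which encodes an RNA-binding protein that blocks let-7 maturation, had a strongest pooled signal value of 14.87, rank 2539, in its 3′ UTR, 2798 bp from the start. The start nearest to that summit was that of the protein-coding gene F02E9.1, at 1178 bp. Replicate 2 had its strongest entry 2896 bp from the start, with a signal value of 7.328 and rank 1123. Replicate 1 had its strongest in an intron 280 bp from the start, with 12.16 and rank 2540. Its nearest summit to the pooled one inside the window was 2518 bp away. Within the window, which stops at the gene end, the 3′ UTR entry of lin-28 was thus seen in 1 replicate only. Summits beyond the gene end were not searched.

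hbl-1, which encodes a zinc finger protein related to fly Hunchback, had a strongest pooled signal value of 8.998, rank 9258, in its 3′ UTR. The start nearest to that summit was that of the protein-coding gene acp-5, at 2187 bp. Within the window the replicates ranked hbl-1 far higher, each at a different place. Replicate 2 had an entry with a signal value of 9.413 and rank 599 at 1952 bp upstream, and replicate 1 one with 11.22 and rank 3105 at 1360 bp upstream. The nearest start to both upstream summits was that of the noncoding RNA gene F13D11.20. The replicate 2 summit lay close to the window edge at 2 kb upstream. With a window from 5 kb upstream, the strongest pooled signal value at hbl-1 was 15.52. The low pooled rank of hbl-1 therefore depends on where the window ends.

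puf-9 and lin-66, which act on the messages of the timing genes, both had reproducible peaks upstream of their own start. puf-9 encodes an RNA-binding protein of the Pumilio family that takes part in the repression of hbl-1. Its peak had a signal value of 101.2 and rank 41 at 282 bp upstream of the start (chrX:5841242-5841369). It was the strongest entry of the 10 genes in all 3 candidate lists, with 74.45 and rank 42 in replicate 1 and 26.82 and rank 52 in replicate 2, and the replicate summits were 41 bp apart. The nearest start was that of the noncoding RNA gene W06B11.7, which runs the other way, 40 bp from the pooled summit and 1 bp from the replicate 2 summit. The other 5 pooled entries at puf-9 had signal values from 5.4 to 10.16, so its signal lay at a single place.

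lin-66 encodes a protein that lowers lin-28 activity. Its peak had a signal value of 27.11 and rank 739 at 412 bp upstream of the start (chrIV:13887497-13887836), and the start nearest to it was its own. The matching entry had a signal value of 18.7 and rank 936 in replicate 1, and 8.832 and rank 682 in replicate 2, with summits 26 bp apart. lin-66 held 9 pooled entries, whose median signal value was 12.18, against a median of 7.299 over the whole pooled list. One of them, with 12.18, lay 49 bp upstream of an internal transcript start, and a replicate 1 entry lay 43 bp upstream of it. Replicate 2 had its nearest entry 126 bp downstream of that start. The window also holds 15 annotated piRNA genes, whose starts were the nearest to 7 of the 9 entries.

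lin-46, which encodes a gephyrin-related protein that acts downstream of lin-28, was the lowest in all 3 candidate lists. Its strongest pooled entry had a signal value of 8.738 and rank 9946 at 1648 bp upstream, 3 bp inside the neighbouring gene R186.3. Replicate 1 had a signal value of 6.311 and rank 13157 at 1718 bp upstream. Replicate 2 had a single entry, with 2.273 and rank 19087, in a coding exon 1358 bp from the start. No pair of replicate summits inside the lin-46 window was closer than 2160 bp.

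lin-29 had a strongest pooled signal value of 16.81, rank 1896, in its 3′ UTR, 17602 bp from the start. The start nearest to that summit was that of the protein-coding gene hmg-12, at 1228 bp. Replicate 1 had a signal value of 16.86 and rank 1156 at nearly the same place, 17560 bp from the start. Replicate 2 had its strongest entry in an intron, 7992 bp from the start, with 3.935 and rank 6604. Its other entry was in the 3′ UTR, 17037 bp from the start, with 3.027 and rank 11837, and was 565 bp from the pooled summit. Inside the window, which stops at the gene end, the closest pair of replicate summits at lin-29 was 523 bp apart. The 3′ UTR summits lay near that end, and summits beyond it were not searched.

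**Figure D1:**
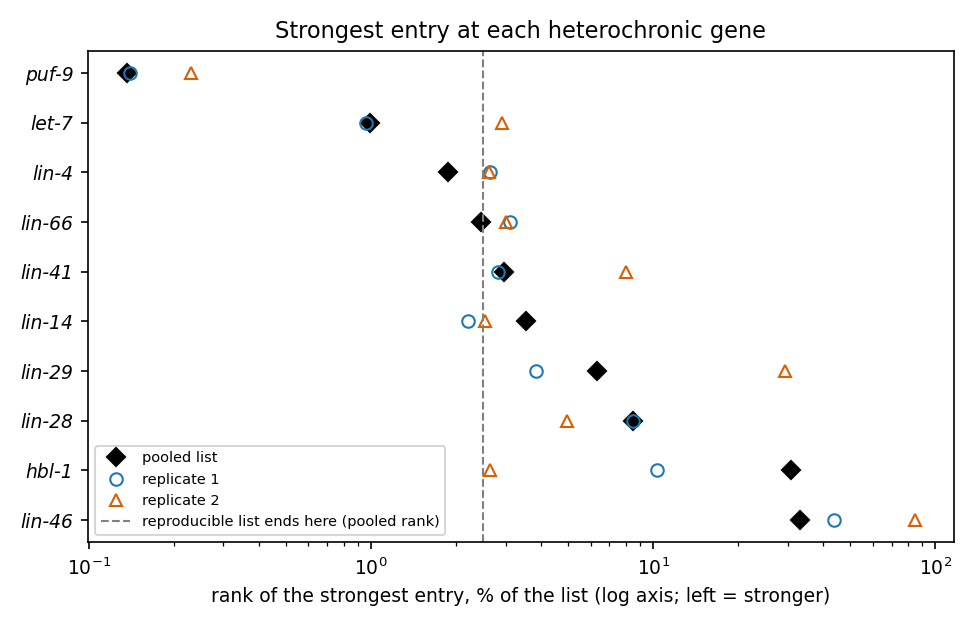
Rank of the strongest entry of each of the 10 genes, as a percentage of its list on a log axis, in the pooled list (diamonds), replicate 1 (circles) and replicate 2 (triangles). The dashed line is at 2.49%, where the reproducible list ends in the pooled ranking. puf-9 is leftmost in every list, lin-46 is rightmost in every list, and hbl-1 is spread from 2.65% to 30.9%. Entries farther than 2 kb upstream are not counted, and the pooled value of hbl-1 depends on that edge.

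The order of the genes by their strongest pooled entry was puf-9, let-7, lin-4, lin-66, lin-41, lin-14, lin-29, lin-28, hbl-1 and lin-46. The places of puf-9 at the top and lin-46 at the bottom were the same in both replicates. Between them the replicates gave different orders. Replicate 1 placed let-7, at 0.957% of its list, ahead of lin-14, lin-4, lin-41 and lin-66, which lay from 2.2% to 3.12%. Replicate 2 placed lin-14, lin-4, hbl-1, let-7 and lin-66 within 2.54% to 3.02%. Both replicates gave the order lin-14, lin-4 and lin-66, whereas the pooled list gave lin-4, lin-66 and lin-14. let-7 was ahead of these 3 genes in replicate 1 and behind lin-14 and lin-4 in replicate 2.

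**Figure D2:**
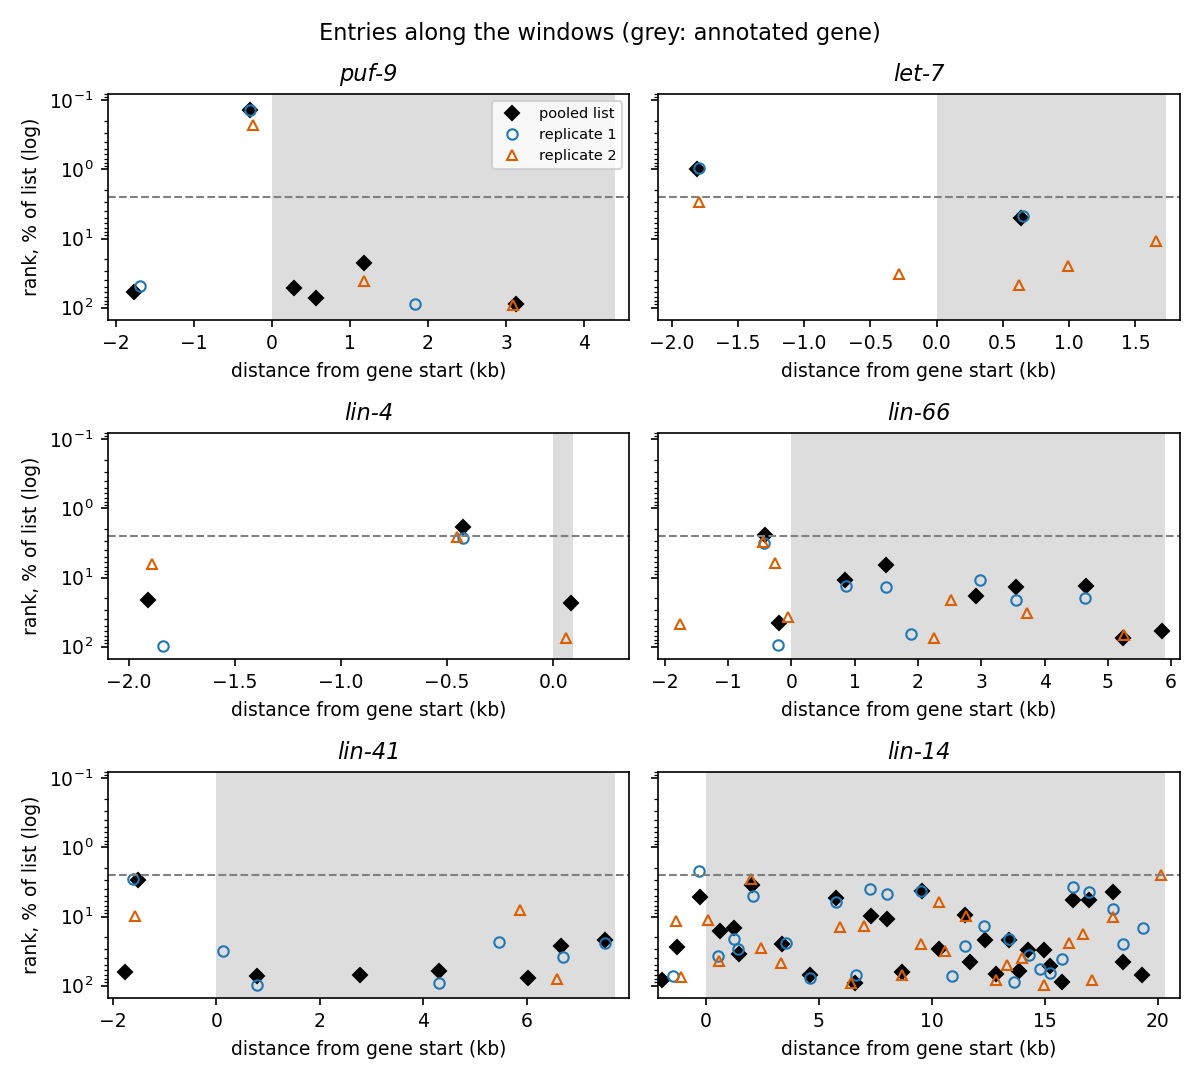
Each panel shows the entries of 1 gene by distance from the gene start in kb, with their rank as a percentage of the list on a reversed log axis, so that stronger entries are higher. Grey marks the annotated gene and the dashed line is at 2.49%. The pooled and replicate entries coincide at the peaks of puf-9, let-7, lin-4 and lin-66, and the 31 pooled entries of lin-14 run along its whole window.

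The replicates were set against each other by position, with summits inside the windows only. At puf-9, let-7, lin-4 and lin-66 the strongest entries of both replicates were 41, 3, 31 and 26 bp apart. At the other 6 genes they were 592 bp (hbl-1) to 20417 bp (lin-14) apart. Over all 10 genes, 13 of 67 replicate 1 summits had a replicate 2 summit within 100 bp, 21 had one within 200 bp and 40 within 500 bp. The pairs within 100 bp lay at 6 genes, the 4 with a reproducible peak together with lin-14 and lin-41. The reproducible list was derived from both replicates and held exactly the strongest entries of the pooled list. The closeness at its 4 members is therefore a description and not a further finding.

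**Figure D3:**
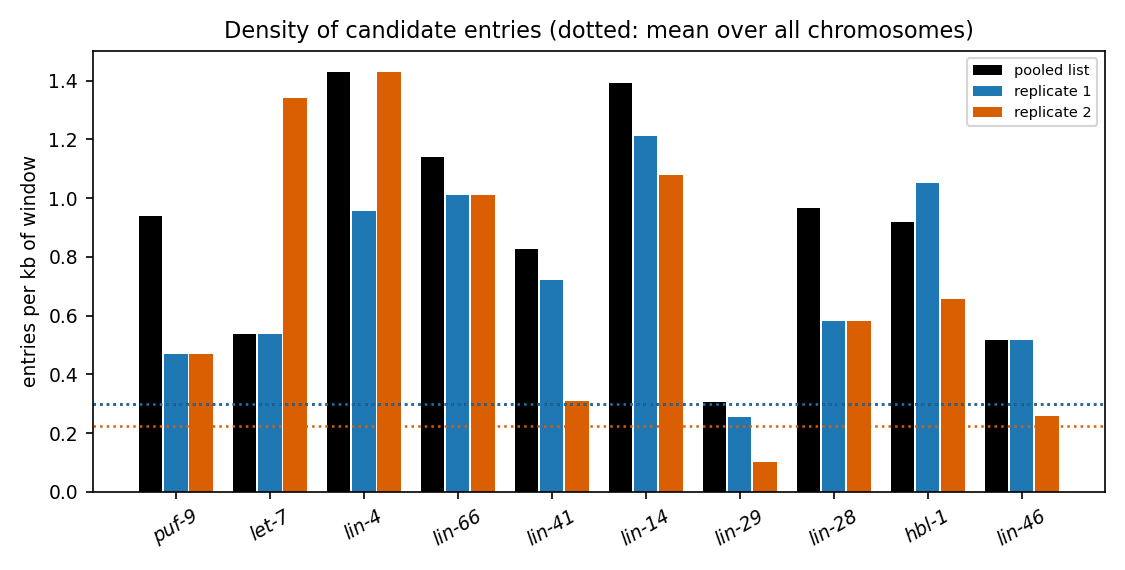
Bars give the number of entries per kb of window at each gene, ordered by strongest pooled entry, in the pooled list, replicate 1 and replicate 2. Dotted lines give the mean over all chromosomes in each list, 0.299 per kb for the pooled list and for replicate 1, and 0.225 per kb for replicate 2. lin-4 and lin-14 have the tallest pooled bars, and lin-29, with 0.305 per kb, lies near the line.

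The 10 windows together held 0.893 pooled entries per kb, and 0.725 without lin-14, against 0.299 over all chromosomes, 0.339 on chromosome X and a median of 0.249 over protein-coding windows. In replicate 1 the values were 0.757 at the members and 0.299 over all chromosomes, and in replicate 2 they were 0.644 and 0.225. Of the 79 pooled entries at the members, 38 lay in introns, 20 upstream, 10 in coding exons, 9 in 3′ UTRs and 2 in noncoding exons. The nearest annotated start was that of a noncoding gene for 52 of the 79, or 65.8%, against 34.6% of all pooled entries. lin-14 gave 30 of these 52. The median of the strongest pooled signal value was 23.46 at the members, against 8.35 over the 24687 genes with an entry and 8.976 over protein-coding genes with one.

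G and C were more frequent at the members with a reproducible peak. Their 4 summits had 54% to 58% G and C in 100 bp, against a median of 49% over the 748 reproducible peaks and 35% over the pooled list. At the strongest pooled entries of the other 6 genes it ran from 24% (lin-28) to 44% (lin-14). The words searched had been picked in earlier work on these peaks, and their presence is no sign of a factor. GTCTC, on either strand, was present at 5 of the 10 strongest pooled summits (puf-9, lin-66, lin-28, lin-41 and lin-4), against 39.4% of all reproducible and 14.4% of all pooled summits. TGCGC was present at lin-66 and lin-14, against 34.8% of reproducible and 7.29% of pooled summits. The homeodomain core TAAT was present at lin-28, hbl-1 and lin-29 and at none of the 4 reproducible summits, against 33.2% of all reproducible and 61.4% of all pooled summits. CTGCGTC was at none of the 10, against 13.4% of reproducible and 2.04% of pooled summits. GAGAGAG was at none either, against 13.8% and 3.45%, and the same held of GCGCGC, against 11.1% and 1.39%. The words can overlap one another, and a 100 bp window with no match says only that these letters are not in it.

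The members are also joined by sequence in their annotated 3′ UTRs. The heptamer CTACCTC, the complement of the let-7 family seed, was present 4 times in the 3′ UTR of lin-14, 4 times in that of hbl-1 and once in that of lin-28. It was present in 0.875% of 16794 protein-coding genes with an annotated 3′ UTR. CTCAGGG, the complement of the lin-4 seed, was present 3 times at lin-14 and once at lin-28, against 0.22% of those genes. Neither heptamer was present at puf-9, lin-66, lin-46, lin-41 or lin-29. A longer 3′ UTR holds more heptamers by its length alone, and the shares were not matched for length. The 3′ UTRs of lin-14, hbl-1 and lin-28 had 1604, 1394 and 531 bp, and that of lin-66 had 1628 bp. Only exact matches were counted, so sites with a bulge or a mismatch in the seed were not looked for. The sites of lin-14 for lin-4 and of hbl-1 for let-7 are shown as 22 bases that end in the heptamer, in capitals, from WBcel235.
lin-14 site 1 for lin-4: tctcttttaatccaaCTCAGGG
lin-14 site 2 for lin-4: aggaatttcttctacCTCAGGG
lin-14 site 3 for lin-4: aaaactcacaaccaaCTCAGGG
hbl-1 site 1 for let-7: tctctgtctcactttCTACCTC
hbl-1 site 2 for let-7: tctcgcactttcattCTACCTC
hbl-1 site 3 for let-7: cctgtataatgccttCTACCTC
hbl-1 site 4 for let-7: gttaattaccattttCTACCTC

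**Figure D4:**
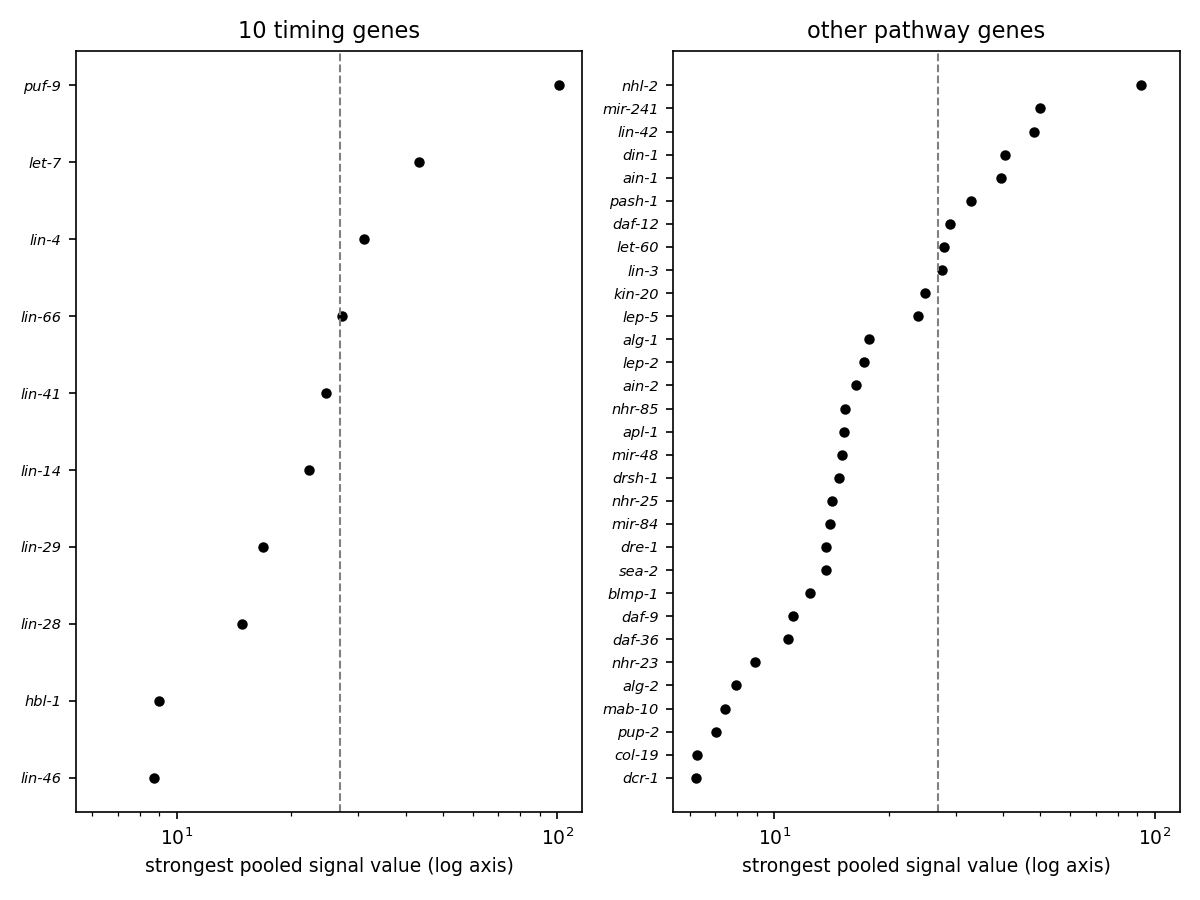
Strongest pooled signal value at each of the 10 timing genes (left) and at the other pathway genes with an entry (right), on log axes. The dashed line is at 26.92, the lowest signal value in the reproducible list. 4 of the 10 timing genes and 9 of the 31 others lie to its right.

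The wider pathway was followed over a list of 32 further genes, chosen with earlier results of these data known. A reproducible peak lay at 9 of them, or 28.1%, with 12 peaks in all, against 3.13% of all genes and 4.72% of protein-coding genes. A pooled entry lay at 31, against 52.6% of all genes and 64.9% of protein-coding genes. The median strongest pooled signal value was 23.46 at the 10 members, against 15.22 at these further genes. Their median window was 7472 bp, against 4026 bp for protein-coding genes. The strongest were nhl-2, a TRIM-NHL cofactor of microRNAs, with 92.18 and rank 50, and mir-241 of the let-7 family, with 49.98 and rank 206 at 444 bp upstream. The nhl-2 summit was 52 bp from the start of the noncoding RNA gene F26F4.14, and its nearest protein-coding start was that of tag-340. The mir-241 summit was 116 bp from the start of the noncoding RNA gene F56A12.8. lin-42, which encodes a protein related to Period, had intronic peaks of 48.12 and 29.45. The nearest starts to them were those of the noncoding RNA genes F47F6.15, at 63 bp, and F47F6.14, at 2221 bp.

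The other reproducible peaks on the list lay at 6 genes. ain-1, which encodes a partner of Argonaute, had a signal value of 39.54, and pash-1, which encodes the partner of the Drosha nuclease, had 32.83, while alg-1, alg-2, ain-2, dcr-1 and drsh-1, which also serve microRNA production or function, had none. daf-12, which encodes the nuclear receptor of the pathway, had an intronic peak of 29.01. Its corepressor gene din-1 had peaks of 40.41, 35.91 and 27.23, while the hormone synthesis genes daf-9 and daf-36 had none. A gene with none is the common case, since 4.72% of protein-coding genes held a reproducible peak. The nearest start to the 40.41 and 27.23 summits of din-1, both intronic, was that of the snoRNA gene F07A11.15, at 83 and 1699 bp. The 35.91 summit lay upstream of din-1 and 20 bp from the start of the noncoding RNA gene ZK20.8. The Ras gene let-60 had 28.01 at an upstream summit, 86 bp from the start of the noncoding RNA gene ZK792.10. The nearest protein-coding start there was that of ZK792.12. The EGF gene lin-3 had 27.52 in its 3′ UTR, 9122 bp from its start. The nearest start to that summit was that of ttr-16, at 707 bp. bli-1, which encodes an adult cuticle collagen, was the one gene of the 32 with no pooled entry.

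The members were also set beside the nearest reproducible peaks by signal that lay in the promoter window of a gene, from 500 bp upstream to 100 bp downstream of its start. puf-9, at 101.2, stood between dld-1 (101.7), a gene of the pyruvate dehydrogenase complex, and the snoRNA genes C51F7.3 and C51F7.4 (101.1), with the ribosomal protein gene rps-1 next (101.1). let-7, at 43.29, stood below a transfer RNA gene (43.36) and above ZK829.7 (43). lin-4, at 31.05, stood below another transfer RNA gene (31.09) and above ubc-25 (30.98), which encodes a ubiquitin-conjugating enzyme. lin-66, at 27.11, stood below the shared promoter of the ribosomal protein gene rpl-31 and sac-2 (27.12) and above hrpa-1 (27.06), which encodes an RNA-binding protein.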

How the data were processed

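Per the file headers and deposited text files, the authors called candidate peaks on each replicate and on the pooled alignments against a control, and passed them through an irreproducible discovery rate step to give the reproducible list. Signal is the authors' score of a peak as deposited, and its scale is not given. The deposited −log10 q column was not used to rank entries, because 1367 pooled entries share its highest value. What aligner, caller and threshold they used is not given in the sources used here. That control and the lists on the older build were not used here.

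Summits on ce11 were counted in windows on the Ensembl release 115 annotation of WBcel235, and the counter was tested on simulated data. let-7, lin-4 and the other microRNA genes were matched through their WormBase identifiers in RefSeq, because Ensembl names them otherwise. Python 3.11.15, NumPy 2.4.6, pandas 2.3.3 and matplotlib 3.10.9 were used. The members, the pathway list, the words and the rule for named genes were chosen with earlier results of these data known. Named genes are all members, pathway genes with a reproducible peak, the starts nearest to a member's strongest summit, and genes next to members in rank. F59G1.4, bli-1, mir-48, mir-84 and 7 pathway genes without a reproducible peak were named outside this rule, after their values were seen. So were the genes whose starts were nearest to the reproducible peaks of the pathway genes. Alternatives changed the window, the threshold, the replicates and the distance that counts as shared.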

Additional observations from a re-analysis of the deposited data

How the results depend on the processing

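The count of 4 members with a reproducible peak fell to 0 within the gene bodies and to 2 in the part of the list above its median signal value. It was 3 to 6 when the 748 strongest entries of 1 replicate took the place of the list: 3 without replicate 2 (puf-9, lin-14 and let-7) and 6 without replicate 1 (puf-9, lin-66, lin-14, hbl-1, let-7 and lin-4). In the promoter window, 500 bp upstream to 100 bp downstream, entries lay at 6 members in the pooled list, 6 in replicate 1, 4 in replicate 2 and 3 in both, against 10 in each with the whole window. Entries of both replicates within 100 bp lay at 6. Of the recomputed counts, 26 were within 1.5 times of the value reported, the 3 and 6 from single replicates among them. The other 7 were not. The strongest pooled signal value changed at 3 genes with a window from 1 kb upstream and at 2 genes from 5 kb upstream. A window from 1 kb upstream leaves out the peak near let-7, whose strongest pooled signal value is then 18.84, and that of lin-41 is then 10.3. From 5 kb upstream that of hbl-1 is 15.52. No paired analysis was possible because there is 1 group. Depth is unknown, so a weak entry cannot be told from a place read too thinly.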
